A study of Mus musculus with 45 samples.

Results

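Cytochrome P450 enzymes are heme proteins that insert oxygen into drugs, fatty acids, steroids, bile acids and vitamins. Most of the microsomal ones take electrons from the reductase encoded by Por, and the hepatocyte holds many of them in large amounts. In rodents the families that oxidise foreign compounds have grown into arrays of neighbouring, similar genes. REV-ERBα, the product of Nr1d1, is a nuclear receptor of the circadian clock that represses transcription with the NCOR and HDAC3 corepressor, and it binds DNA at the half-site AGGTCA.

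The P450 genes were taken as all protein-coding genes of the mouse RefSeq annotation whose symbol begins with Cyp and a digit, leaving out Cyp7a1, Cyp7b1, Cyp8b1, Cyp27a1 and Cyp51. This gave 94 of 21627 protein-coding genes (autosomes and X), in 35 subfamilies. Binding of REV-ERBα came from chromatin immunoprecipitation with sequencing of liver from REV-ERBa3HA/3HA mice, which carry an HA epitope tag on the endogenous protein. These mice had received no AAV vector, and the tagged protein was precipitated on anti-HA magnetic beads. Livers came from ZT10, that is zeitgeber time 10, with 4 samples, and from ZT22, also with 4. Zeitgeber time counts the hours from lights on. The sources used here did not give sex or age. A list of peaks joins all 4 samples of its time, as pooled by the authors, with 27929 peaks at ZT10 and 36 at ZT22, so values have no spread between replicates and no p-value was computed. The other 37 samples of the series, among them the untagged liver and the input, were not analysed here.

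Each peak carries a summit, and a fold, the authors' ratio of the signal at the summit to the local background. A gene was said to have a summit when one lay inside its annotated span or within 10 kb of it. The number of fragments at a summit was worked out from the fold and the authors' p-value, and the 95% Poisson interval given with it covers counting error only. Peaks record binding and not RNA, so the labelled tissue was set against binding near marker genes only: 8 of 8 hepatocyte markers had a summit, 2 of 8 Kupffer cell markers, 4 of 6 endothelial markers and 2 of 6 stellate cell markers. Over all protein-coding genes the share was 54.5%. The endothelial share was 66.7%, which for a list of 6 is not far from that of all genes. The strongest folds there ran from 8.83 to 24.2, so binding near markers was not limited to those of hepatocytes.

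P450 genes had REV-ERBα binding at ZT10 more often than protein-coding genes at large, and the binding was stronger. A summit was found at 73 of the 94 genes (77.7%), against 54.5% of all protein-coding genes. The strongest fold per gene had a median of 13.3 among the 73, with quartiles of 9.18 and 18.7, against 7.82 among all genes with a summit. A fold of at least 10 was reached at 51 P450 genes, or 54.3%, where 19.1% of all genes reached it. A fold of at least 20 was reached at 13, or 13.8%, against 3.99%, but 2 of these 13 share their site. At least 2 summits lay at 48 P450 genes (51.1%), against 32% of all genes.

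The annotated span of a P450 gene had a median of 22038 bp, against 17330 bp for all genes, and a longer span can hold more summits. Per Mb of sequence in or within 10 kb of the genes, there were 36.5 summits around P450 genes and 16.8 around all protein-coding genes. Inside the span alone the shares lay nearer to each other, at 40.4% of P450 genes and 36.2% of all genes. Conjugation enzymes, which act after P450 enzymes in drug clearance, had similar values, with a summit at 53 of 62 Ugt, Sult and Gst genes (85.5%) and a median strongest fold of 14.0. These genes share many sites, with 218 pairs of gene and summit from 113 distinct summits, against 163 from 151 for P450 genes. Their share and median therefore count some sites more than once. The 8 hepatocyte markers had a median strongest fold of 15.9, against 13.3 for P450 genes. A fold of at least 10 was reached at 87.5% of these markers, against 54.3% of P450 genes. The 5 P450 genes of bile acid and sterol synthesis that were left out all had a summit, with strongest folds from 6.12 at Cyp51 to 20.4 at Cyp7a1.

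**Figure D1:**
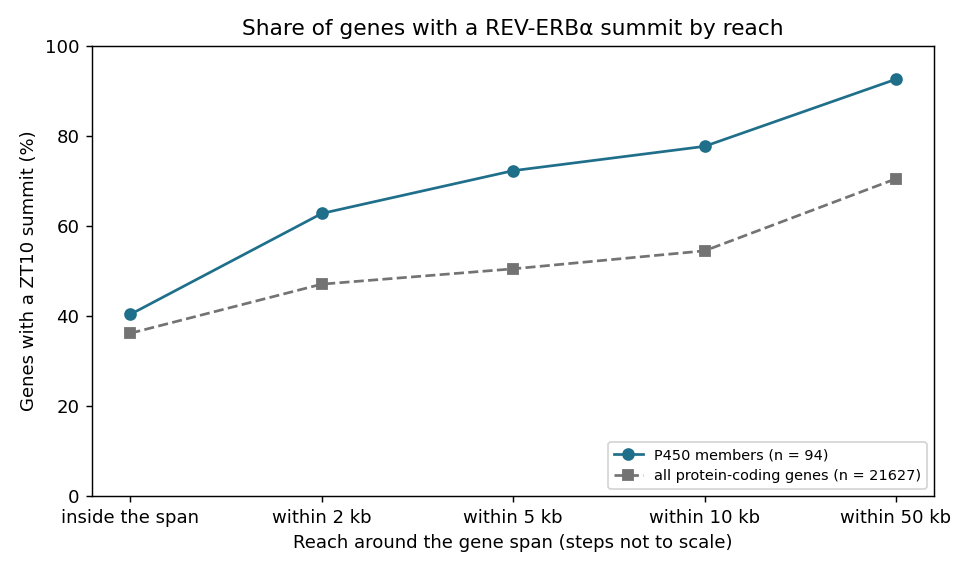
Share of genes with a ZT10 summit (%) by the reach allowed around the gene span, for the 94 P450 genes (circles) and all 21627 protein-coding genes (squares); steps on the x axis are not to scale. The P450 share runs from 40.4% inside the span to 92.6% within 50 kb, and that of all genes from 36.2% to 70.5%.

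No P450 gene had a summit at ZT22, where 0.0694% of all protein-coding genes had one. That list is short, and a share of this size would give less than 1 gene in 94. The ZT22 summit nearest to any of them lay 567167 bp from Cyp17a1.

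The Cyp2 family, which oxidises many foreign compounds, held the strongest single site. Among its 47 genes without Cyp2r1, which is given with the vitamin D genes, 38 had a summit, with a median strongest fold of 13.1. The highest fold of any P450 gene was at Cyp2b13, a fold of 31.5 with 682 fragments (632 to 735), in a peak at chr7:26053866-26056857 whose summit lay 6204 bp upstream of the start. Its neighbour Cyp2b9 had a fold of 27.4 (593 fragments, 546 to 643), 4208 bp upstream of its start. Both belong to the phenobarbital-related Cyp2b enzymes. Cyp2b10, the member known for its induction through the receptor CAR, had a fold of 13.8 at 8151 bp upstream, with further summits of 11.95 at 2282 bp upstream and 7.77 inside the gene.

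Other Cyp2 genes with a fold above 20 were spread over several arrays. Cyp2c39 had 22.7 (490 fragments, 448 to 535), at 667 bp upstream of the second of its listed starts. Cyp2d26 had 21.8 at 2065 bp upstream. Cyp2j5, an arachidonic acid epoxygenase, had 21.5 at 480 bp upstream. Cyp2e1, which oxidises ethanol and paracetamol, had 21.5 with 541 fragments (496 to 589), at 6903 bp upstream. The Cyp2e1 peak was 12934 bp wide and ran over the start of the gene, where the median width of peaks at P450 genes was 2383 bp and that of all peaks 1679 bp. Cyp2a4, a steroid hydroxylase, had 6 summits, the most of any P450 gene. Its strongest by fold, 20.2 with 436 fragments, lay 3414 bp upstream. A second, of 18.3, lay 748 bp beyond the far end of the gene. It had more fragments, 460, over a higher local background. The other 4 were between 4.01 and 5.71. Cyp2d40 had 19.4 at 108 bp downstream of its start.

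Below these stood the rest of the Cyp2a to Cyp2w genes. Cyp2a5, the coumarin hydroxylase, had 14.1, Cyp2a12 11.04 and Cyp2a22 10.9. Cyp2f2, a naphthalene-oxidising enzyme, had 13.8 inside the gene, and Cyp2g1 had 13.3. Among the Cyp2 genes that stand alone, Cyp2u1, a fatty acid hydroxylase, had 5 summits with 16.5 as the strongest, Cyp2c23 had 13.7 inside the gene and Cyp2w1 had 13.01. Cyp2ab1 had none within 138855 bp.

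All 9 Cyp3 genes are of the Cyp3a subfamily, which oxidises steroids and a large part of drugs, and 8 of them had a summit, each with at least 2. Their median strongest fold was 18.3, and the lowest of the 8 was 10.3, so that all lay above the median of 7.82 of genes with a summit. Cyp3a13, which stands apart from the array, had the strongest, a fold of 26.9 (582 fragments, 536 to 631) at 496 bp upstream of its start. Cyp3a16 had 22.4, Cyp3a25 19.0, Cyp3a11 18.8, Cyp3a44 17.9, Cyp3a59 16.1, Cyp3a41b 15.6 and Cyp3a41a 10.3.

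In the array the strongest summits took different places. In Cyp3a44, Cyp3a41b and Cyp3a41a they lay inside the gene at like distances, 5428, 5323 and 5484 bp downstream of the start, and Cyp3a16 had a summit of 14.5 at 4738 bp downstream. In Cyp3a25 and Cyp3a59 summits lay right at the promoter, with folds of 18.2 and 16.1 at 196 and 140 bp upstream, and both also had one farther upstream, at 8810 and 8826 bp, with folds of 19.0 and 12.6. In Cyp3a11 the summit lay 1419 bp upstream, in a peak that ran over the promoter. Cyp3a41a and Cyp3a41b are near-copies, and how the authors placed reads that match both was not given in the sources used here, so the split between their folds is uncertain. The local background was 1.69 times the lowest value at Cyp3a41a and 1.45 times at Cyp3a41b, and the fragments at their summits were 345 (310 to 383) and 459 (418 to 503).

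Cyp3a57 was the Cyp3a gene with no summit, the nearest being 27781 bp away with a fold of 6.67. Its promoter is shown with those of 3 relatives under a peak. Cyp3a25 and Cyp3a59 are shown because they hold the same pair of half-sites, and Cyp3a11 because it holds a single one. The sequences are the 250 bases before the annotated start, 5′ to 3′ on the gene's strand, from RefSeq (build GRCm38.p6), with AGGTCA and its reverse complement TGACCT in capitals.
Cyp3a57, chr5:145345019-145345268, plus strand: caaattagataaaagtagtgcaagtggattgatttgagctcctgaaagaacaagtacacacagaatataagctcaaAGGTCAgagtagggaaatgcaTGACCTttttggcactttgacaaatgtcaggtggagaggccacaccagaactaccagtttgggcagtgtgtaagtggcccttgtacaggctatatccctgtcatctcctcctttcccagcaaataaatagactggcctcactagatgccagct
Cyp3a25, chr5:146009618-146009867, minus strand: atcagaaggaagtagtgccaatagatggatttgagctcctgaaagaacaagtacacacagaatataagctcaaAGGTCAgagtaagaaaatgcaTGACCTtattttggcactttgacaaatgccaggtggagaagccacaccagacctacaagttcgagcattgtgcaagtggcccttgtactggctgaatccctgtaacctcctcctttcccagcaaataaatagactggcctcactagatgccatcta
Cyp3a59, chr5:146079008-146079257, plus strand: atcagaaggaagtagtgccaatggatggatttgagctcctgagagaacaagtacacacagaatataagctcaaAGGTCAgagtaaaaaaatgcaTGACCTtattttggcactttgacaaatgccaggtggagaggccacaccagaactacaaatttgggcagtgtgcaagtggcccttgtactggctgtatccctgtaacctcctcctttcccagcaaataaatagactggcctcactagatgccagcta
Cyp3a11, chr5:145879855-145880104, minus strand: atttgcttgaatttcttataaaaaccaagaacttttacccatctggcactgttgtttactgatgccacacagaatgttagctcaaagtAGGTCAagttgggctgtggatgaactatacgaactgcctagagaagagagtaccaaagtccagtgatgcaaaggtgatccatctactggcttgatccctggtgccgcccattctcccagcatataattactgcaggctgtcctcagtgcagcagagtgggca
In Cyp3a57, Cyp3a25 and Cyp3a59 an AGGTCA was followed after 15 bases by a TGACCT, beginning 174, 177 and 177 bases before the start. With gaps in the alignment counted as differences, Cyp3a57 was 88.1% identical to Cyp3a25 and 90.1% to Cyp3a59. This pair was looked for after the sequences were seen, and 5 of 21044 promoters held it (0.0238%), 2 of them from starts of Cyp3a25 that lie 1 base apart and 1 from Foxp3. Cyp3a11, with 1 half-site 162 bases before its start, was 52.7% identical to Cyp3a57, with gaps counted in the same way. Of the 3 Cyp3a genes with the pair, 2 had it under a peak and 1 did not. Among the Cyp3a promoters not shown, that of Cyp3a13 held no AGGTCA but lay under a peak. That of Cyp3a44 held 1 with no peak over it, and those of Cyp3a16, Cyp3a41b and Cyp3a41a had neither. Whether reads from these similar promoters could be placed on each of them was not tested.

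The 20 Cyp4 genes, whose products hydroxylate fatty acids at the end of the chain, had a summit at 16, with a median strongest fold of 12.6. Cyp4f39 had the strongest, 23.0 (497 fragments, 454 to 543), deep inside the gene at 27496 bp from a start. In the Cyp4a subfamily, targets of the fatty acid receptor PPARα, Cyp4a10 had 20.4, Cyp4a14 19.1, Cyp4a31 18.0 and Cyp4a32 16.3. Cyp4a12a and Cyp4a12b had 5.75 and 6.30. These values are uncertain in the same way as those of Cyp3a41a and Cyp3a41b, since Cyp4a12a and Cyp4a12b are near-copies too. Whether folds at other similar genes of the arrays are affected in this way was not tested. Cyp4a29 and Cyp4a30b had no summit in reach. Cyp4f40 and Cyp4f15 shared 1 site of 13.9, as Cyp4f14 and Cyp4f13 did with 1 of 11.9. Cyp4x1 and Cyp4b1 had the lowest folds of all P450 genes with a summit, 4.01 and 4.24. Cyp4f16 and Cyp4f18 had none. Cyp4v3, a fatty acid hydroxylase outside the arrays, had 4 summits, with 13.2 inside the gene as the strongest.

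In the Cyp1 family, which oxidises aryl hydrocarbons and oestrogens, Cyp1a1 and Cyp1a2 lie head to head and shared a site of 10.5 (225 fragments, 197 to 256), 406 bp upstream of the Cyp1a2 start. Cyp1a1 had 4 further summits, the strongest of them 9.57 at 956 bp upstream of a start. Cyp1b1, which is expressed mainly outside the liver, had no summit within 82860 bp.

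Genes with hormone and vitamin substrates were split. Of the 6 steroid hormone genes, whose main sites of expression are adrenal gland and gonads, Cyp11a1, Cyp11b1, Cyp11b2 and Cyp19a1 had no summit within 10 kb. The nearest lay 65827, 31289, 16701 and 31574 bp away, and the one nearest to Cyp11a1 had a fold of 34.6. Cyp17a1, the 17-hydroxylase, had 4 summits, with folds of 19.4 inside the gene, 16.0 at 241 bp outside its span, 10.9 and 6.87. Cyp21a1, the 21-hydroxylase, had 1 of 17.01 at 4657 bp from its span.

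Cyp26a1 and Cyp26c1, which break down retinoic acid, are neighbours, and both of their summits were in reach of both genes. The stronger, a fold of 30.1 with 652 fragments (603 to 704) at chr19:37700915-37704318, was the second strongest site of any P450 gene. It lay 1169 bp beyond the far end of Cyp26a1 and 9385 bp from Cyp26c1. The other, of 18.8, lay between the genes, 1760 bp upstream of the Cyp26a1 start. Cyp26b1 had no summit within 46978 bp.

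Of the vitamin D genes, the 25-hydroxylase gene Cyp2r1 had a summit of 8.0 at 140 bp downstream of its start. The 1-hydroxylase gene Cyp27b1 had 2, of 8.28 and 4.70, and the stronger lay inside Cdk4. The gene of the catabolic enzyme, Cyp24a1, had none within 13350 bp. Cyp39a1, which hydroxylates 24-hydroxycholesterol, had 3 summits, with 9.38 at 31 bp outside its span, and Cyp46a1, the cholesterol 24-hydroxylase of neurons, had 1 of 5.16 at 328 bp upstream. The orphan Cyp20a1 had 1 of 4.61 at 202 bp downstream of its start.

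**Figure D2:**
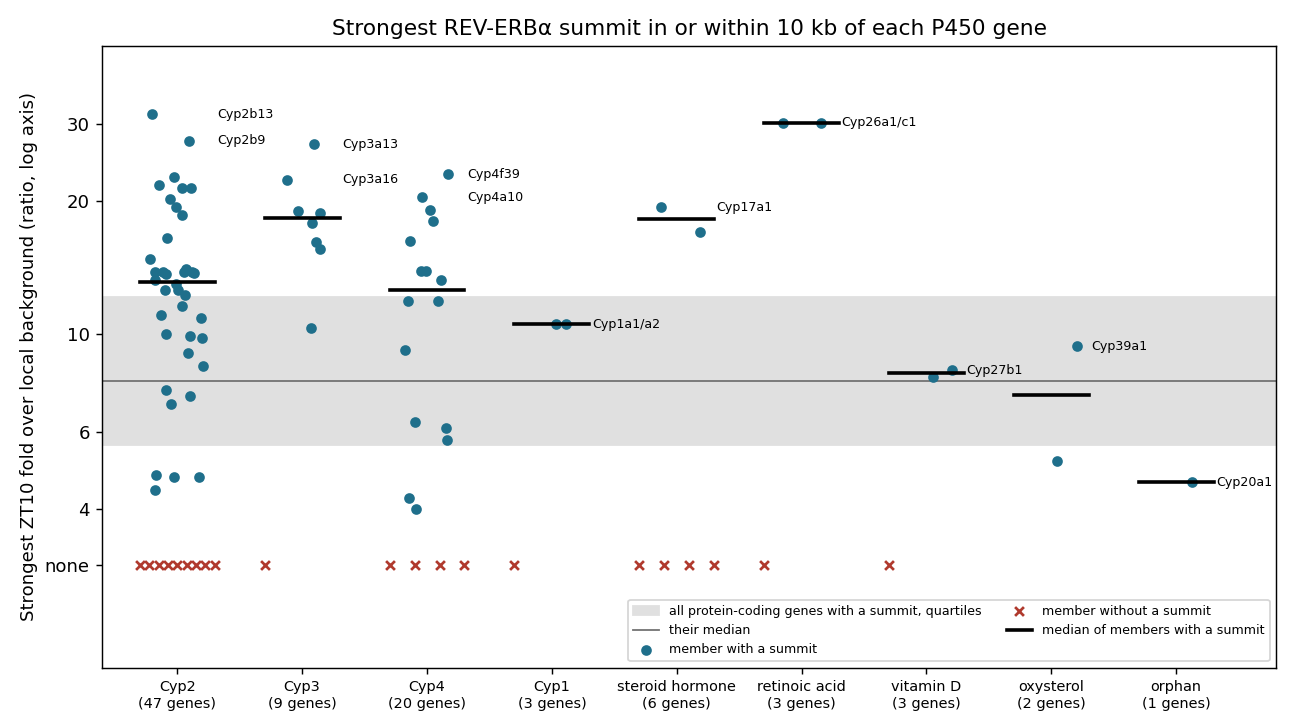
Strongest ZT10 fold (ratio to local background, log axis) of each of the 94 P450 genes, by family or substrate, with red crosses for genes with no summit in reach and black bars for the median of genes with one. The grey band holds the quartiles 5.61 to 12.1 of all protein-coding genes with a summit; Cyp3 genes sit almost entirely above it, and 4 of the 6 steroid hormone genes have no summit.

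By position, 68 of the 94 genes lay in 7 arrays of 4 or more, joined where the gap between spans was at most 500 kb. In these arrays 56 of 68 genes had a summit (82.4%). Of the other 26, 17 had one (65.4%). The arrays were not alike. The Cyp2c array on chromosome 19 had a summit at 14 of 14 genes over 1180347 bp, most of them moderate, with a median strongest fold of 9.84. Its folds ran from 4.79 at Cyp2c65 to 22.7 at Cyp2c39, whose annotated span also contains Cyp2c38. The Cyp2d array on chromosome 15 had one at 8 of 8 genes in 423926 bp and 56.6 summits per Mb, the densest of the 7. Its folds ran from 4.42 at Cyp2d12 and 4.74 at Cyp2d34 to the 21.8 of Cyp2d26.

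The mixed Cyp2a, Cyp2b, Cyp2f, Cyp2g, Cyp2s and Cyp2t array on chromosome 7 had a summit at 10 of 13 genes, from 10.0 at Cyp2t4 to the 31.5 of Cyp2b13. Cyp2s1, Cyp2b23 and Cyp2b19 had none, and Cyp2b19 lay just outside reach, with a summit of 12.1 at 10784 bp. The Cyp2j array on chromosome 4 was the sparsest, with a summit at 2 of 7 genes and 4.83 per Mb. The first 510.8 kb of it, from Cyp2j13 to the summit in Cyp2j6, held none. Cyp2j6 had a fold of 4.74, Cyp2j5 at the end of the array had 3 summits of 21.5, 18.1 and 6.58, and Cyp2j8, Cyp2j9, Cyp2j11, Cyp2j12 and Cyp2j13 had none. Of the 8 Cyp4f genes on chromosome 17, 7 had one, from 6.12 at Cyp4f37 to 23.0. Of the 10 genes from Cyp4x1 to Cyp4b1 on chromosome 4, 8 had one.

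**Figure D3:**
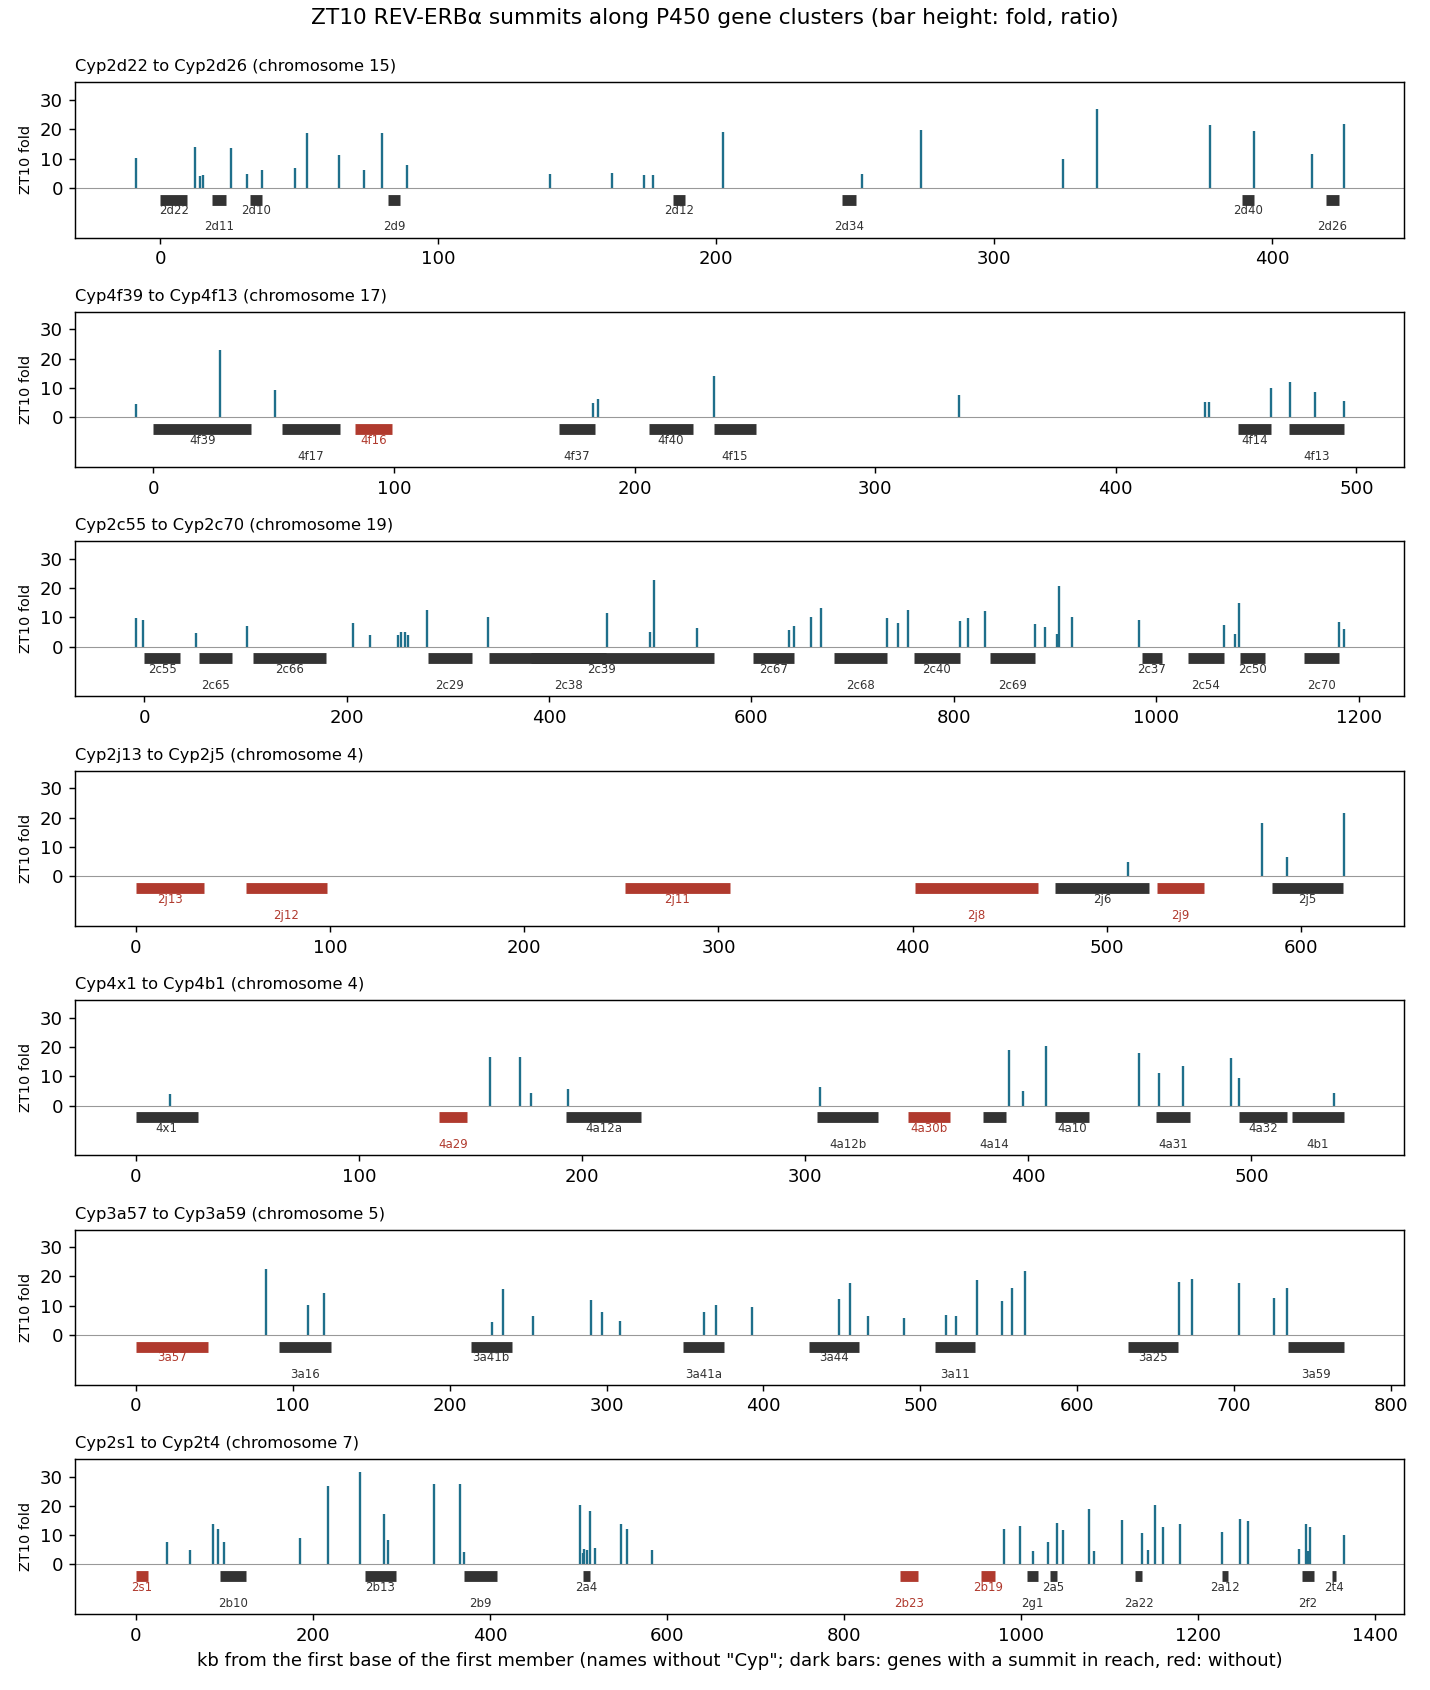
Fold (ratio) of every ZT10 summit along the 7 arrays of 4 or more P450 genes, plotted in kb from the first base of the first gene, with gene spans as bars, dark for genes with a summit in reach and red for those without. Summits fill the Cyp2d, Cyp2c and Cyp3a arrays, whereas the Cyp2j array has none in its first 510.8 kb.

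Strong sites also stood between the genes of an array. Of 157 summits inside the 7 arrays, 57 lay more than 10 kb from any P450 gene, and 51 of these had no protein-coding gene in reach. The 3 strongest were a fold of 27.4 between Cyp2b13 and Cyp2b9, 33571 bp from Cyp2b9, 1 of 26.9 between Cyp2b10 and Cyp2b13, 41297 bp from Cyp2b13, and 1 of 26.7 between Cyp2d34 and Cyp2d40, 52174 bp from Cyp2d40. The Cyp3a array had 1 of 21.8 at 32006 bp from Cyp3a11, and the Cyp2c array 1 of 20.6 at 23604 bp from Cyp2c69.

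Neighbouring genes shared few sites. The 73 genes had 163 pairs of gene and summit from 151 distinct summits, and 12 summits were in reach of 2 P450 genes. Of the 151, 63 lay inside a P450 gene, and 139 had a P450 gene as the nearest protein-coding gene. At 3 genes the strongest summit lay nearer to a gene of another kind: Cyp27b1 with Cdk4, Cyp2t4 with Egln2 and Cyp2w1 with 3110082I17Rik. At the limit of the reach, Cyp2d12, Cyp2t4 and Cyp4f40 were the last inside, at 7112, 8484 and 8783 bp, and Cyp4a29, Cyp2b19 and Cyp24a1 the first outside, at 10087, 10784 and 13350 bp, with folds of 16.5, 12.1 and 4.05.

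Much of the binding near P450 genes stood away from the promoter. Starts and strand were listed for 74 of the 94 genes, and 29 of them had a summit within 1 kb of a start (39.2%), against 34.5% of the 17273 protein-coding genes with a listed start. The excess over all genes lay farther out: 13.5% of P450 genes had their nearest summit over 2 to 5 kb from a start, against 4.71%, and 12.2% had it over 5 to 10 kb away, against 4.65%. Within 10 kb of a start, which does not depend on the length of the gene, there was a summit at 52 of 74 (70.3%), against 47.2%. Of the 56 genes with a listed start and a summit, the strongest one lay within 1 kb of a start in 19, and it was upstream of the span in 26, inside it in 17 and beyond its far end in 13.

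**Figure D4:**
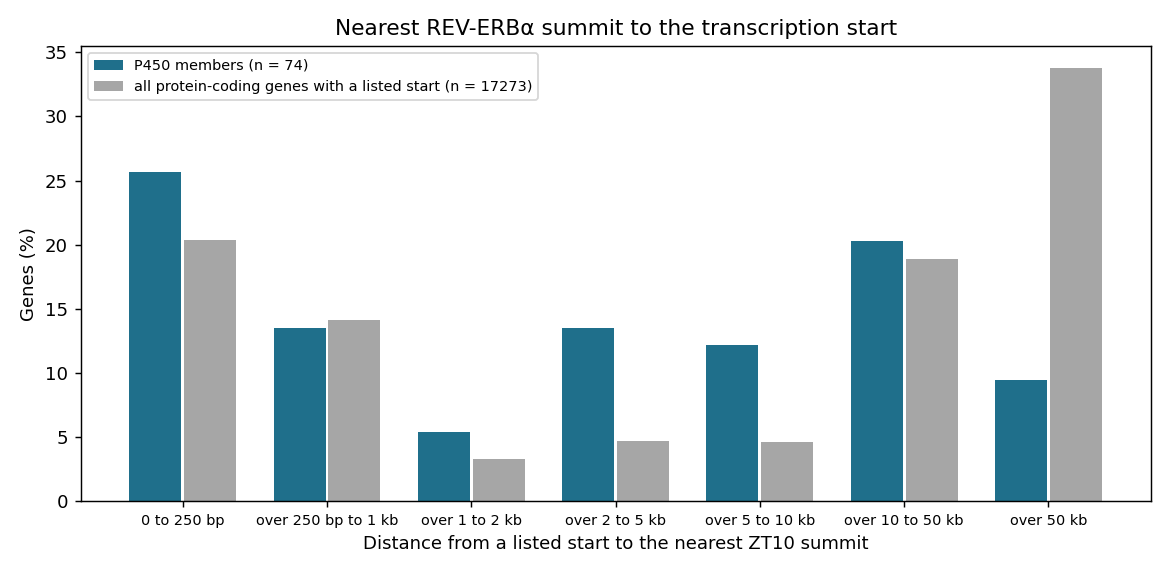
Share of genes (%) by the distance from a listed start to the nearest ZT10 summit, for 74 P450 genes (blue bars) and all 17273 protein-coding genes with a listed start (grey bars). The bars differ little up to 1 kb, P450 genes stand higher from 2 to 10 kb, and 9.46% of them against 33.8% of all genes have no summit within 50 kb.

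In 84 promoters of the 74 genes, the 300 bases from 250 before to 50 after the start held AGGTCA on either strand in 26.2%, against 14.6% of the 21044 promoters of all genes. The longer TAGGTCA was in 1.19%, against 2.35%, and AGGTCA repeated in the same direction after 2 bases in 0% of both sets. The E-box CACGTG was in 2.38%, against 7.91%, and TTANNTAA, the core bound by PAR bZIP factors, in 13.1%, against 5.26%. TAGGTCA and the repeat contain AGGTCA, so these shares overlap. Promoters of related genes were counted separately, though they are not independent. TTANNTAA was in those of Cyp3a16, Cyp3a41a, Cyp3a41b, Cyp3a44 and Cyp3a57. AGGTCA was counted at both adjacent starts of Cyp3a25 and at its relatives Cyp3a57 and Cyp3a59. The P450 promoters had a mean GC content of 48.7%, against 56.4%, and the part of base composition in these shares was not tested.

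A peak lay over the promoter window of 41 of the 74 genes (55.4%), against 39.1% of all genes with a listed start. Peaks at P450 genes were also wider, as given above. The promoters of Cyp2j5 and Cyp2c70 are shown as a pair with 1 AGGTCA each under a peak in other subfamilies, with that half-site in capitals and the same source and orientation as above.
Cyp2j5, chr4:96664120-96664369, minus strand: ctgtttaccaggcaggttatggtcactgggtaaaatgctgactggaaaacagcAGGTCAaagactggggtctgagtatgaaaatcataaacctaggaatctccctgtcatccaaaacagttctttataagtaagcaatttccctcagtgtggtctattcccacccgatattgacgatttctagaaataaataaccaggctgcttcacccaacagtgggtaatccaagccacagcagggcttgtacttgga
Cyp2c70, chr19:40187287-40187536, minus strand: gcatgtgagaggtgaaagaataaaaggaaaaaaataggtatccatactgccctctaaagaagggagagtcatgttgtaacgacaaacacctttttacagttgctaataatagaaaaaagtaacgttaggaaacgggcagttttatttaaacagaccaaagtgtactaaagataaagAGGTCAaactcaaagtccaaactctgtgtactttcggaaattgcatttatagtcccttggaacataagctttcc
The half-site began 197 bases before the start in Cyp2j5, whose summit of 21.5 lay 480 bp upstream of the start. In Cyp2c70, a gene of bile acid 6-hydroxylation in mice, it began 74 bases before the start, and the summit of 8.45 lay 107 bp upstream. Both promoters were picked for holding the half-site under a peak. Of the 84 P450 promoters, 46 were under a peak and 22 held AGGTCA, so most promoters under a peak held none. That of Cyp2e1 lay under a peak without AGGTCA, and that of Cyp2b13 held AGGTCA with no peak over it. Whether the half-site marks bound promoters was not tested.

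Every listed gene whose product serves or controls P450 enzymes had binding in reach. The 8 genes of electron transfer and heme-binding partners had a median strongest fold of 9.40, against 7.82 among all genes with a summit. All 8 had a summit, where 54.5% of all protein-coding genes had one. Por, the P450 reductase gene, had 10, the strongest at 22.01. Cytochrome b5 genes followed, with Cyb5a at 13.5 and Cyb5b at 9.93, then the b5 reductase gene Cyb5r3 at 10.8, the ferredoxin Fdx1 at 8.88, its reductase Fdxr at 7.31, Pgrmc2 at 6.76 and Pgrmc1 at 6.03. All 11 genes of transcription factors had at least 2 summits, where 32% of all protein-coding genes did. Their annotated spans had a median of 54383 bp, against 17330 bp for all genes, and a longer span can hold more summits. The xenobiotic receptor genes Nr1i3 and Nr1i2 had strongest folds of 21.7 and 21.6, Ppara 24.7, the clock output activators Dbp 20.9, Hlf 20.7 and Tef 11.1, Nr3c1 15.5, Hnf4a 14.7, Ahr 8.55, Rxra 8.0 and Arnt 6.70. The strongest summit of Nr1i2 lay inside the gene. Those of Nr1i3 and Cyb5a lay 9374 and 9299 bp outside the span, near the limit of the reach.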

How the data were processed

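Liver REV-ERBα binding was analysed from 2 deposited peak lists, each made by the authors from 4 pooled anti-HA samples, per the labels. Per the submitters' processing notes, the tools included MACS2 2.1.2, BWA 0.7.17, cutadapt 2.3, SAMtools 1.9, deepTools 3.3.0, Picard 2.18.12 and bcl2fastq 2.17, and the build was mm10. Their settings and the control library were not given in the sources used here. The deposited fold is the authors' ratio of summit signal to local background. The −log10 p and −log10 q in the deposited lists are the authors' p-value and q-value of each peak, and the deposited score was not used.

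Gene spans were RefSeq's for GRCm38.p6, a build with the same coordinates as mm10, and starts and promoters from a RefSeq promoter table that matched 74 of the 94 P450 genes. Summits (0-based start plus offset) were assigned with Python 3.11.15 and pandas 2.3.3. Fragments were solved from fold and −log10 p with a pseudocount of 1, the lowest background of 4.14 and 0.236 per fragment. They came out within 0.1 of a whole number at 99.1% of ZT10 peaks. Fragments at the strongest summits of P450 genes ranged from 83 to 682 (median 295). At 10 of the 73 genes this summit lay over a raised local background, which lowers the fold for a given number of fragments. Cyp2e1 and Cyp3a11, each at 1.21 times the lowest background, were among them. The assignment and the solution were tested on simulated data. Duplicate PCR fragments are not independent molecules, so the exact Poisson intervals (95%) cover counting error only.

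The P450 genes, the lists and the rule for named genes were chosen with earlier results of these data known. The rule took the 15 strongest members, the strongest of each role, the highest, lowest and unbound members of each array, all hormone, vitamin, oxysterol and orphan genes, the genes at the limit of the reach, and all partner and regulator genes. Other P450 genes named, such as Cyp2b10, Cyp4a14 and Cyp2u1, were chosen after their values were seen. Samples in 16 other groups were not analysed here. Alternatives were other reaches, the nearest gene only, −log10 q limits, starts instead of spans, and other measures of strength.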

Additional observations from a re-analysis of the deposited data

How the results depend on the processing

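No paired analysis was possible because each time has a single list joining all 4 samples, and for the same reason no replicate could be left out. No spread between samples is known. Binding inside the span alone left 38 P450 genes with a summit, of which the share was 40.4% against 36.2% of all genes, and 63 distinct summits. A reach of 2 kb left 95 distinct summits and one of 50 kb took in 273. Within 250 bp of a start 19 of 74 genes had a summit (25.7%), against 20.4% of all genes. Under a reach of 2 to 50 kb, the nearest gene only, −log10 q limits or 10 kb from a start, the share of P450 genes with a summit ran from 62.8% (reach of 2 kb, against 47.1% of all genes) to 92.6% (50 kb, against 70.5%). In each of these it was above that of all genes. The median strongest fold ran from 9.77 inside the span alone to 17.01 with a reach of 50 kb. A −log10 q of at least 5 and 1 row per interval removed nothing. No P450 gene had a ZT22 summit even with a reach of 50 kb. Of the 15 genes of highest fold, 14 were kept by −log10 q, 7 inside the span alone and 9 with a reach of 50 kb. Further settings were chosen after seeing the data. Ranking by fragments kept 13, and peaks at the lowest background gave 66 genes (70.2%, against 51.6% of all genes). Leaving out genes with a shared or foreign strongest site gave 58 of 79. That step removes only genes with a summit, so the share could only fall.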

Other observations

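Some P450 genes are known for RNA levels that differ between the sexes in mouse liver, and 2 lists of them were written after the values were seen, so their values are a description with no test. The lists may leave out other genes of either kind. The female-predominant list (Cyp2a4, Cyp2b9, Cyp2b13, Cyp2c40, Cyp2c69, Cyp3a16, Cyp3a41a, Cyp3a41b, Cyp3a44 and Cyp17a1) had a ZT10 summit at 10 of 10 genes. A summit was found at 77.7% of all P450 genes and at 54.5% of all protein-coding genes. The strongest folds of the list had a median of 18.6 and ran from 10.3 to 31.5, and 5 of the 15 strongest P450 genes were in it. Of its 9 genes with a listed start, 0 had the strongest summit within 1 kb of a start, but 4 had some summit there (44.4%), against 29 of all 74 P450 genes with a listed start (39.2%). Among the other P450 genes with a summit and a listed start, 19 of 46 had the strongest one there, and their median strongest fold was 13.1 over 60 genes with a summit. The male-predominant list (Cyp2d9, Cyp4a12a and Cyp4a12b) had strongest folds of 18.7, 5.75 and 6.30, of which the last 2 belong to near-copies and are uncertain. The 3 genes Cyp3a41a, Cyp3a41b and Cyp3a44, in which the strongest summits lay 5323 to 5484 bp downstream of the start, are all in the female-predominant list, and they are close relatives, so they are not independent of each other. The sex of the mice was not given in the sources used here.

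In the Cyp2j array, the genes Cyp2j8, Cyp2j11, Cyp2j12 and Cyp2j13 had no ZT10 summit within 46081 bp, while Cyp2j5 at the same array's end had 3.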
